A study of Mus musculus with 12 samples.

Results

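The nucleosome remodelling and deacetylase complex (NuRD) is described here through the transcripts of 10 of its core subunits in mouse regulatory T cells (Treg). The members were taken by name as Chd3, Chd4, Mta1, Mta2, Mta3, Hdac1, Hdac2, Mbd2, Mbd3 and Gatad2a, which are 10 of the 36222 genes listed. The list names the genes and sets no threshold on a measured value, although it was drawn up with earlier results of these data known, and each symbol had a single gene identifier. The comparisons ask whether the transcripts of this partner complex of Ikaros differ when Ikaros is lost from Treg, when Treg are stimulated, and when both happen together.

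Treg were sorted as CD4+ YFP+ cells from individual mice, with spleen as the labelled tissue where the purification methods of the study name lymph nodes as well. The mice of the ex vivo libraries were aged 6 to 8 weeks, as described for that experiment. The samples fall into 4 groups of 3 libraries. Wild-type (WT) mice carried Foxp3-YFP-Cre, in which the Foxp3 locus drives a fluorescent protein and Cre recombinase, and the Ikzf1 cKO mice carried the same driver together with a floxed Ikzf1 gene, so both genotypes share the Cre. RNA was prepared either directly ex vivo or after 4 h on immobilised antibodies against CD28 and CD3, each at 1 ug/ml, which engage the T cell receptor and its costimulatory partner. The ex vivo libraries are not described as cultured, so the antibodies and the time in culture cannot be told apart.

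NuRD joins a chromatin remodeller to a histone deacetylase. A CHD helicase moves nucleosomes with the energy of ATP, the deacetylases HDAC1 and HDAC2 strip acetyl groups from histone tails, the MTA proteins form the scaffold that holds the deacetylases, RBBP4 and RBBP7 bind histones, MBD2 or MBD3 ties the modules together, and a GATAD2 protein bridges to the helicase. In lymphocytes the zinc finger protein Ikaros is known to bind NuRD, and the complex is known in T cell development for silencing genes.

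Levels are TPM, a transcript's share of each library corrected for gene length, as deposited, with the mean ± SD of 3 libraries. Changes are differences between group means of log2(scaled TPM + 1), in which library scaling was recomputed, and come with the standard error (SE) of the fit. A gene was called when its Benjamini-Hochberg adjusted p from limma was under 0.05 over the 13318 genes that reached a mean of 5 TPM in any group. All 10 members passed that filter.

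The libraries held 8208659 to 20247649 reads on genes, with 8208659 to 10930376 in the stimulated cKO libraries and 10045424 to 13440658 in the stimulated WT libraries. The transcript Gm10800 took 17.7% to 39.8% of all TPM ex vivo and 32.6% to 55.9% after stimulation, which lowers every other TPM value of the same library. WT ex vivo library 2, with Gm10800 at 39.8%, had the lowest TPM of its group for 10 of the 10 members, and cKO stimulated library 3, with Gm10800 at 55.9%, likewise for 10 of 10. After scaling these counts were 9 and 5. Xist, a marker of female cells, stood at 179 TPM in WT ex vivo library 3 and at no more than 1.36 TPM in the other libraries. The omission of that library is among the alternatives, and the part of this difference in the comparisons was otherwise not tested. Summed Treg and T cell markers reached 755 to 2271 TPM, and the summed markers of each of 7 other cell classes stayed at or under 21.95 TPM. Summed B cell markers differed between genotypes ex vivo without overlap, at 9.49 to 12.7 TPM in WT and 16.1 to 21.95 TPM in cKO, with Cd79b at means of 5.94 and 11.9 TPM. After stimulation these sums overlapped, at 8.65 to 13.6 and 12.5 to 16.9 TPM. Ikzf1, the targeted gene, stood at 105 ± 20.6 TPM in WT and 41.9 ± 2.82 TPM in cKO Treg ex vivo, and at 74.8 ± 8.48 and 25.2 ± 7.43 TPM after stimulation, without overlap between genotypes. Egr2, an early gene of T cell activation, rose with stimulation by 1.48 in WT and 1.31 in cKO on the log2 scale (lost in cKO with the 1 TPM filter or none, limma adjusted p = 0.0598 and 0.057). Not every stimulation control gene rose. Nr4a1, an immediate early gene, went from 975 ± 247 to 751 ± 92.6 TPM in WT and from 655 ± 28.8 to 604 ± 187 TPM in cKO. Its scaled WT libraries held 857 to 1219 ex vivo and 654 to 716 after stimulation. Il2ra went from 128 ± 30.8 to 130 ± 16.1 TPM in WT and from 148 ± 12.9 to 194 ± 69.0 TPM in cKO. Myc went from 56.9 ± 14.9 to 97.8 ± 8.92 TPM in WT and from 65.7 ± 8.07 to 83.9 ± 23.8 TPM in cKO. In bulk RNA, fewer cells of a type and less RNA per cell cannot be told apart.

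The members differed widely in level. In WT Treg ex vivo the helicase genes Chd3 (100 ± 28.6 TPM) and Chd4 (82.9 ± 19.1 TPM) led, followed by Mta2 (49.2 ± 9.53 TPM), Mta1 (41.9 ± 14.9 TPM), Gatad2a (41.6 ± 6.87 TPM) and Mbd2 (39.5 ± 10.1 TPM). Mbd3 (21.6 ± 5.29 TPM), Mta3 (18.1 ± 2.78 TPM), Hdac1 (13.0 ± 2.95 TPM) and Hdac2 (12.3 ± 3.18 TPM) were lowest. Of the neighbours in this order, only Chd4 and Mta2, Mbd2 and Mbd3, and Mta3 and Hdac1 had ranges that did not overlap. Every member was above the library medians of olfactory and vomeronasal receptor genes, taken as silent in T cells, which were 0.556 to 1.15 TPM over 1716 genes. In both stimulated groups the order of means began with Chd4, Mta2 and Chd3, with overlapping ranges of Mta2 and Chd3, while the mean of Hdac2 was lowest in all 4 groups. The ranges of Hdac1 and Hdac2 overlapped in both ex vivo groups, and in cKO ex vivo library 1 Hdac2 was the higher (18.6 against 17.7 TPM).

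**Figure D1:**
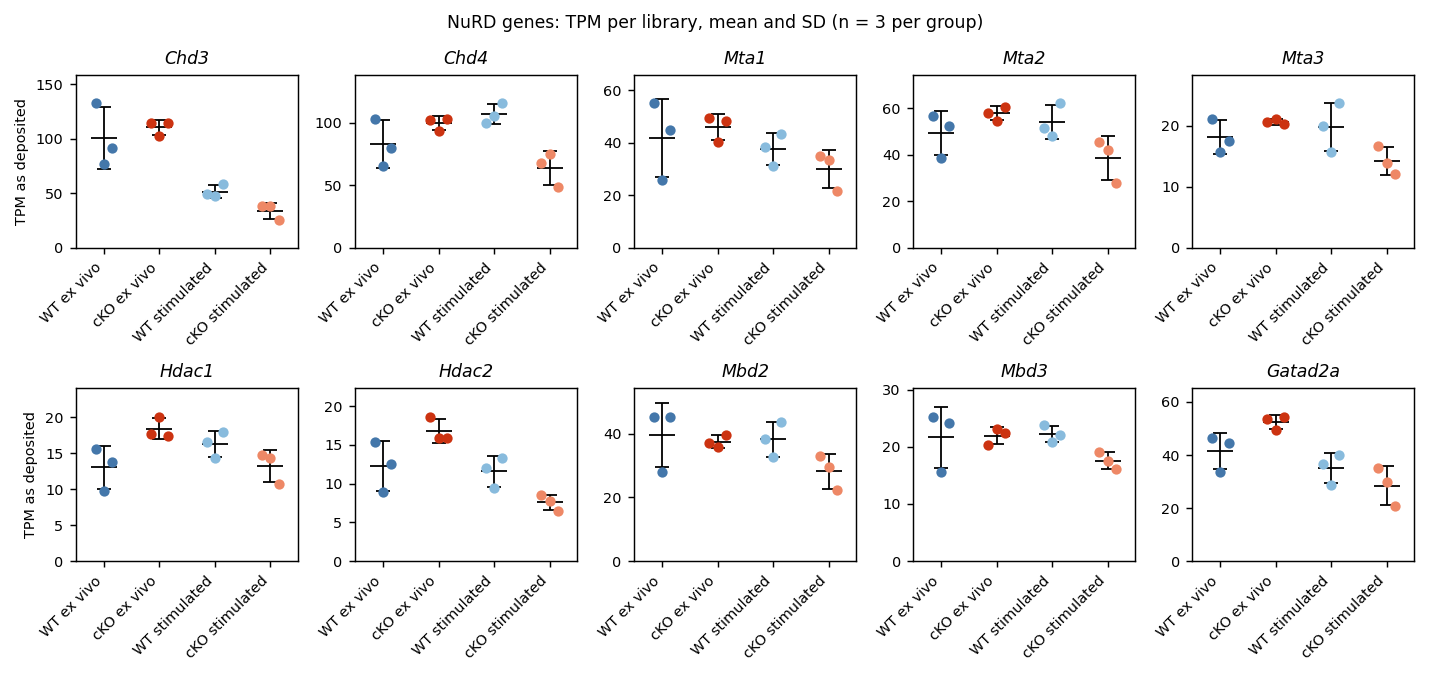
TPM as deposited (vertical axis, from 0) of the 10 NuRD genes in WT and cKO Treg, ex vivo and stimulated; each point is a library and bars are the mean and SD of 3. Chd3 drops from 77.1 to 132 TPM in WT ex vivo libraries to 47.1 to 58.0 TPM in WT stimulated libraries, while the Chd4 points of those groups overlap.

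The helicase genes gave the clearest pattern among the members. Chd3 (ENSMUSG00000018474, mm9 chromosome 11, 69156775 to 69182928, minus strand) and Chd4 (ENSMUSG00000063870, mm9 chromosome 6, 125045999 to 125080609, plus strand) encode alternative ATP-dependent motors, of which a NuRD particle carries either. Chd3 measured 132, 77.1 and 91.8 TPM ex vivo and 49.5, 47.1 and 58.0 TPM after stimulation in the WT libraries. The cKO libraries held 114, 102 and 115 TPM of Chd3 ex vivo and 38.5, 38.3 and 25.7 TPM after stimulation. Every stimulated library lay below every ex vivo library of its genotype. Stimulation lowered Chd3 2.16-fold in WT (log2 change -1.11, SE 0.12, limma adjusted p = 6.35e-05) and 2.57-fold in cKO (-1.36, SE 0.12, adjusted p = 1.29e-05). Both calls held in 19 of 19 alternative settings, with changes of -1.37 to -0.92 in WT and -1.897 to -1.26 in cKO.

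Chd4 did not follow Chd3. Chd4 measured 103, 65.4 and 80.1 TPM ex vivo and 100.3, 105.5 and 116 TPM after stimulation in the WT libraries. The cKO libraries held 102, 93.5 and 103 TPM of Chd4 ex vivo and 68.2, 74.8 and 48.8 TPM after stimulation. The WT groups overlapped, and the change with stimulation was 0.19 (95% interval -0.09 to 0.47, limma adjusted p = 0.281), with the sign turning to -0.06 under the scaling factors of a 1 TPM filter. In cKO Treg the stimulated libraries lay below the ex vivo ones in TPM as deposited but overlapped once scaled, and the change of -0.33 (95% interval -0.61 to -0.05) missed the threshold at limma adjusted p = 0.0583. Chd4 was called there in 7 of 19 alternatives, among them the fits without cKO ex vivo library 2, WT stimulated library 2 or cKO stimulated library 2.

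The ratio of both helicase transcripts within a library does not depend on library scaling. Chd3 over Chd4 was 1.28, 1.18 and 1.15 ex vivo and 0.494, 0.446 and 0.502 after stimulation in the WT libraries, and 1.11, 1.09 and 1.11 ex vivo and 0.565, 0.512 and 0.526 after stimulation in the cKO libraries. No stimulated library overlapped an ex vivo library. The mean log2 difference was -1.19 over both genotypes (exact two-sided permutation test within genotype, p = 0.005, the smallest its 400 arrangements allow, and 0.0233 after Benjamini-Hochberg adjustment over the 14 ratio tests). Chd3 made up 53.8% ± 1.54 of the summed TPM of Chd3, Chd4 and Chd5 in WT ex vivo and 31.6% ± 1.23 in WT stimulated (SD, n = 3). The corresponding shares in cKO were 51.7% ± 0.59 and 33.0% ± 0.93. Chd5, the remaining NuRD helicase, known mainly from neurons, had group means of only 2.35 to 5.04 TPM and reached the filter through the cKO stimulated group alone, where it was highest, so no call of it is counted.

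**Figure D2:**
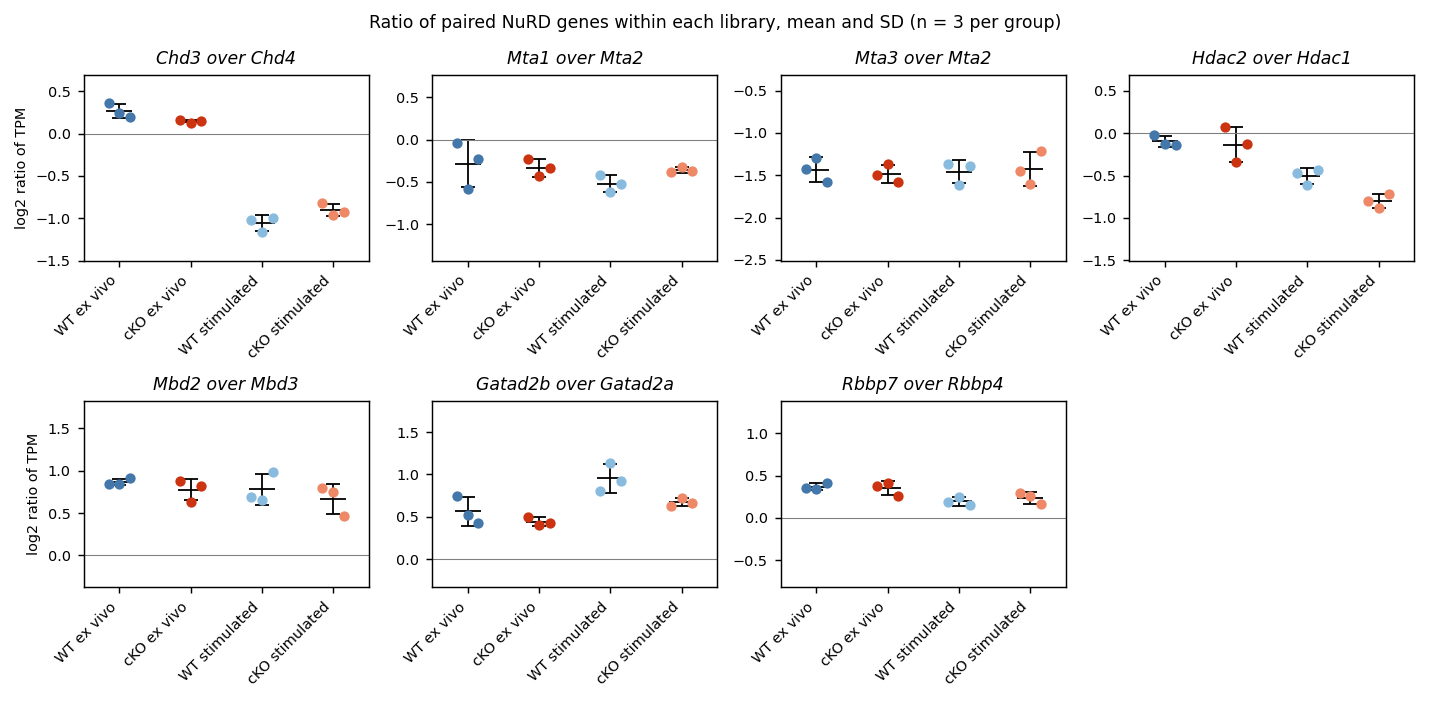
Log2 ratio of TPM (vertical axes of equal height) for 7 pairs of related NuRD genes within each library, with mean and SD of 3 libraries per group. Chd3 over Chd4 falls from above 0 in every ex vivo library to below -0.82 in every stimulated library, and Hdac2 over Hdac1 is lower in the stimulated groups.

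Of the 3 scaffold genes, Mta3 alone was called, and in a single comparison. Mta1 (ENSMUSG00000021144, mm9 chromosome 12, 114336489 to 114375417), Mta2 (ENSMUSG00000071646, mm9 chromosome 19, 9016365 to 9026793) and Mta3 (ENSMUSG00000055817, mm9 chromosome 17, 84105503 to 84223055), all on the plus strand, encode the metastasis-associated proteins that position the deacetylases. Mta2 held the largest share of the summed MTA TPM in each group, with 45.5% ± 2.77 ex vivo and 48.5% ± 1.89 after stimulation in WT, and 46.4% ± 1.03 and 46.4% ± 0.97 in cKO. Mta3 held 16.6% to 17.7% as group means. The ratio of Mta1 to Mta2 moved by -0.13 on the log2 scale with stimulation (exact permutation p = 0.22, adjusted 0.412) and that of Mta3 to Mta2 by 0.02 (p = 0.835, adjusted 0.899).

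That call was in cKO Treg. Mta3 stood at 20.6, 21.1 and 20.3 TPM in cKO ex vivo and 16.6, 13.8 and 12.05 TPM in cKO stimulated, without overlap. The fall was small (log2 change -0.21, SE 0.07, limma adjusted p = 0.0362) and was called in 10 of 19 alternatives, with adjusted p from 0.0137 to 0.129. Leaving out WT ex vivo library 3, cKO ex vivo library 1 or 3, WT stimulated library 1, or cKO stimulated library 1 or 3 ended the call, as did the block for replicate number (adjusted p = 0.0568), median-of-ratios scaling (-0.15, adjusted p = 0.107) and limma-voom (0.0556). In WT the change of Mta3 was -0.08 (95% interval -0.24 to 0.08), turning to 0.11 in TPM as deposited.

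Mta2 in cKO Treg lay just outside the threshold, with 58.0, 54.7 and 60.7 TPM ex vivo and 45.6, 42.1 and 27.8 TPM after stimulation (-0.28, SE 0.10, limma adjusted p = 0.0506), and was called in 7 of 19 alternatives, among them the fits without cKO ex vivo library 2 or cKO stimulated library 2. Mta1 measured 55.0, 25.7 and 44.9 TPM in the WT libraries ex vivo and 31.3 to 43.2 TPM after stimulation, and 40.4 to 49.6 and 21.5 to 34.9 TPM in cKO. Its changes of -0.29 in WT (95% interval -0.66 to 0.09) and -0.31 in cKO (95% interval -0.68 to 0.07) were not called. Without WT ex vivo library 2 the change in WT was -0.49 and was called (limma adjusted p = 0.0227).

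The deacetylase genes moved apart after stimulation. Hdac1 (ENSMUSG00000028800, mm9 chromosome 4, 129193348 to 129219957, minus strand) and Hdac2 (ENSMUSG00000019777, mm9 chromosome 10, 36694350 to 36721695, plus strand) encode the paired class I deacetylases of NuRD, which also serve the SIN3 and CoREST complexes. Hdac2 measured 15.3, 8.99 and 12.5 TPM ex vivo and 11.998, 9.42 and 13.4 TPM after stimulation in the WT libraries. The cKO libraries held 18.6, 15.9 and 15.9 TPM of Hdac2 ex vivo and 8.50, 7.74 and 6.49 TPM after stimulation. The cKO groups did not overlap, whereas the WT groups overlapped as deposited and not once scaled. Stimulation lowered Hdac2 1.69-fold in cKO (-0.75, SE 0.11, limma adjusted p = 0.000367), a call held in 19 of 19 alternatives. In WT the change was -0.24 (95% interval -0.49 to 0.00, adjusted p = 0.119).

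Hdac1 measured 15.6, 9.80 and 13.8 TPM ex vivo and 16.6, 14.4 and 18.0 TPM after stimulation in the WT libraries. The cKO libraries held 17.7, 20.1 and 17.4 TPM of Hdac1 ex vivo and 14.8, 14.3 and 10.7 TPM after stimulation. It was not called with stimulation in WT (0.14, 95% interval -0.05 to 0.32, turning to -0.11 under the factors of a 1 TPM filter) or in cKO (-0.15, 95% interval -0.33 to 0.04). In cKO the change became -0.66 with the 1 TPM filter (limma adjusted p = 0.0391) and -0.65 with no filter (adjusted p = 0.0407), both called. Its level is uncertain, because 36.8% of its exonic windows of 51 bases, 1046 of 2845, occur elsewhere in the mm9 genome, 900 of them in the gene model Gm10093 on chromosome 17. Gm10093 itself was listed at group means of 16.6 to 24.8 TPM. No window of Hdac2 was repeated.

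The ratio of Hdac2 to Hdac1 was 0.937 ± 0.043 ex vivo and 0.706 ± 0.046 after stimulation in WT, and 0.918 ± 0.131 and 0.574 ± 0.033 in cKO (SD, n = 3). The stimulated libraries were lower than all ex vivo libraries of their genotype, and the mean log2 difference was -0.54 (exact permutation p = 0.005, adjusted 0.0233). Between genotypes the ratios overlapped ex vivo and were lower in cKO after stimulation, but the difference over both conditions, -0.17, missed the threshold (exact permutation p = 0.07, adjusted 0.163).

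Mbd2 (ENSMUSG00000024513, mm9 chromosome 18, 70727843 to 70785785, plus strand), which reads methylated CpG, and Mbd3 (ENSMUSG00000035478, mm9 chromosome 10, 79855284 to 79862295, minus strand), which has largely lost that ability, occupy separate NuRD particles. Mbd2 measured 45.4, 27.9 and 45.3 TPM ex vivo and 38.3, 32.8 and 43.8 TPM after stimulation in the WT libraries. The cKO libraries held 37.1, 36.0 and 39.7 TPM of Mbd2 ex vivo and 33.0, 29.5 and 22.2 TPM after stimulation. Mbd3 measured 25.3, 15.6 and 24.1 TPM ex vivo and 23.7, 20.8 and 22.1 TPM after stimulation in WT, and in cKO 20.3, 23.2 and 22.4 TPM, then 19.0, 17.5 and 16.1 TPM. Mbd2 was the higher of the pair in all 12 libraries, with a group mean ratio of 1.60 to 1.82. That ratio differed by -0.10 on the log2 scale with stimulation (exact permutation p = 0.245, adjusted 0.412), and neither gene was called in any of the 5 comparisons.

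Gatad2a (ENSMUSG00000036180, mm9 chromosome 8, 72430968 to 72520278, minus strand) encodes the bridge between helicase and deacetylase modules. Gatad2a measured 46.6, 33.7 and 44.4 TPM ex vivo and 36.6, 28.7 and 40.1 TPM after stimulation in the WT libraries. The cKO libraries held 53.5, 49.6 and 54.4 TPM of Gatad2a ex vivo and 35.0, 29.8 and 20.7 TPM after stimulation. The cKO groups did not overlap, and the WT groups overlapped as deposited but not once scaled. Stimulation lowered it 1.35-fold in WT (-0.43, SE 0.10, limma adjusted p = 0.00594) and 1.48-fold in cKO (-0.57, SE 0.10, adjusted p = 0.000947). The WT call was lost in TPM as deposited (-0.24, adjusted p = 0.476) and with the 1 TPM filter or none, while the cKO call held in 19 of 19 alternatives.

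Its paralog Gatad2b (ENSMUSG00000042390), which is used in place of Gatad2a in other NuRD particles, was the more abundant of the pair in all 12 libraries and its change with stimulation was -0.05 in WT (95% interval -0.31 to 0.21). In cKO it fell by 0.35 on the log2 scale (SE 0.12, limma adjusted p = 0.0352), called in 12 of 19 alternatives and lost without WT ex vivo library 3, cKO ex vivo library 1 or 3, or cKO stimulated library 1 or 3 (adjusted p = 0.0682 to 0.182), with the replicate block (0.0561) and with median-of-ratios scaling (0.0601). The ratio of Gatad2b to Gatad2a was 1.48 ± 0.176 ex vivo and 1.94 ± 0.230 after stimulation in WT, and 1.36 ± 0.049 and 1.59 ± 0.053 in cKO. It rose with stimulation in both genotypes without overlap (mean log2 difference 0.31, exact permutation p = 0.005, adjusted 0.0233). It was lower in cKO than in WT (-0.20, exact permutation p = 0.015, adjusted 0.042), without overlap after stimulation only, and 7 of 12 single-library omissions ended that call.

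Promoter sequences are shown for some of the members held in the RefSeq promoter table: Chd4, which was not called with stimulation in the chosen fit, and Gatad2a and Hdac2, which were called lower in at least 1 genotype. The table held 6 of the 10 members (Chd4, Mta1, Mta2, Hdac2, Mbd3 and Gatad2a) and not Chd3, Mta3, Hdac1 or Mbd2. The 250 bases before the start are from build GRCm38.p6, 5′ to 3′ on the strand of the gene, and capitals mark GGGAA, the core that Ikaros zinc fingers recognise, or TTCCC, the same letters on the other strand.
Chd4, start 1, plus strand, chr6:125095731-125095980: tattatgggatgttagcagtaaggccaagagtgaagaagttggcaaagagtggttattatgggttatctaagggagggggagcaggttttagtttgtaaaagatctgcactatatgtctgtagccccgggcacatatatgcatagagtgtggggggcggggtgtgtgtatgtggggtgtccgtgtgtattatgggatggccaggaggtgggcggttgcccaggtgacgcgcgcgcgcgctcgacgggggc
Chd4, start 2, plus strand, chr6:125095913-125096162: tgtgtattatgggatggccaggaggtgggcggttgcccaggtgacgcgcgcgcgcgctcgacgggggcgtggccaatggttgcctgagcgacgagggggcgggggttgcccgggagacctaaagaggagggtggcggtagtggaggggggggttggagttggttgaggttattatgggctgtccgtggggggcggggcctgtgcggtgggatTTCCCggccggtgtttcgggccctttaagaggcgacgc
Hdac2, plus strand, chr10:36974294-36974543: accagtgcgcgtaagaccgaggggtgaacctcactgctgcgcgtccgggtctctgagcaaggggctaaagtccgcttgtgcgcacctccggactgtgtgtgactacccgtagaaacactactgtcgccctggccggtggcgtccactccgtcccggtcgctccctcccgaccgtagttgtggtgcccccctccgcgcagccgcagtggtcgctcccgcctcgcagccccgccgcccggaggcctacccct
Gatad2a, start 1, minus strand, chr8:69996385-69996634: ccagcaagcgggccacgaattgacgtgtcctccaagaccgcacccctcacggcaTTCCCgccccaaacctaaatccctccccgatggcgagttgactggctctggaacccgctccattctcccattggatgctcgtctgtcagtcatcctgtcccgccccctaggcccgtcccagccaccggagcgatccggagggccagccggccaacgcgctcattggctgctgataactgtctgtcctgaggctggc
Gatad2a, start 2, minus strand, chr8:69974384-69974633: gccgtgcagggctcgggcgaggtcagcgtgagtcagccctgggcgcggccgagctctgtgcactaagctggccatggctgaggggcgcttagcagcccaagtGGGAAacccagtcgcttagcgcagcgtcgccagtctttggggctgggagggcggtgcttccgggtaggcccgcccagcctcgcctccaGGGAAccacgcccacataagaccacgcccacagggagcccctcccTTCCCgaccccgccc

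The first start of Gatad2a held GGGAA or TTCCC 1 time and the second 3 times. The second start of Chd4 also held it 1 time, while these letters are not in the windows of Hdac2 or of the first start of Chd4. The windows of the Chd4 starts overlap. The longer TGGGAA, which contains GGGAA, was in 1 window of the 6 members, that of the second Gatad2a start. Of all 32851 windows of this length in the table, 56.2% hold GGGAA and 21.6% TGGGAA on either strand, so a match is a description and not a binding site. All windows of the 6 members were rich in CpG, with 12 to 39 CpG against a median of 6 over the table.

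Between WT and cKO Treg ex vivo no member passed the threshold. Of the 13318 genes tested, 5.29% were called, and of the 10 members 0 were called by limma. An unadjusted p under 0.05 was reached by 2 members, beside 2384 of the 13318 genes. Limma-voom on recovered reads called 9.03% of all genes and 0 members. The 2 members with an unadjusted limma p under 0.05 were Hdac1 (0.26, SE 0.08, adjusted p = 0.111), higher in each cKO than in each WT library, and Mbd2 (-0.27, SE 0.11, adjusted p = 0.23), with overlapping groups. The median change of the members was -0.01, equal to that of all genes tested at 2 decimals. The intervals set limits on what could have been missed: Chd4 at 0.05 (95% interval -0.23 to 0.33), Chd3 at -0.07 (-0.33 to 0.20), Mta2 at 0.01 (-0.22 to 0.24) and Gatad2a at 0.11 (-0.10 to 0.32). In TPM as deposited, where the median of all genes shifts to 0.21, Chd3, Mta1, Mta3 and Mbd3 turn positive (0.17, 0.20, 0.19 and 0.05), and Mta2 turns to -0.01 under the factors of a 1 TPM filter.

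After stimulation the genotype comparison called 6.93% of all genes and 0 of the 10 members. An unadjusted p under 0.05 was reached by 4 members, beside 3166 of the 13318 genes. Limma-voom called 9.36% of all genes and 1 member. The median change of the members was -0.16, against -0.03 over all genes, and Mta1, Hdac1, Mbd3 and Gatad2a were at -0.05 to -0.02 with signs that turned in single-library omissions. The member median was -0.10 without cKO stimulated library 3, against -0.01 over the same 13318 genes. It was -0.44 in TPM as deposited and -0.45 with the 1 TPM filter, against -0.30 and -0.31. Chd4 was closest to the threshold. Its WT libraries, at 100.3 to 116 TPM, lay above its cKO libraries, at 48.8 to 74.8 TPM, and its change was -0.47 (SE 0.13, limma adjusted p = 0.0532). Limma-voom called it (adjusted p = 0.0188), as did the fits without cKO ex vivo library 2 (0.0485) or cKO stimulated library 2 (0.0214), and adjusted p reached 0.294 over the 19 alternatives. Chd3 (-0.31), Hdac2 (-0.29) and Mta3 (-0.17) were the other members with an unadjusted p under 0.05, and their scaled groups did not overlap. The Gm10800 share was 42.9% to 55.9% in the cKO stimulated libraries and 32.6% to 44.4% in the WT ones, with overlap, and its part in the result was not tested.

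**Figure D3:**
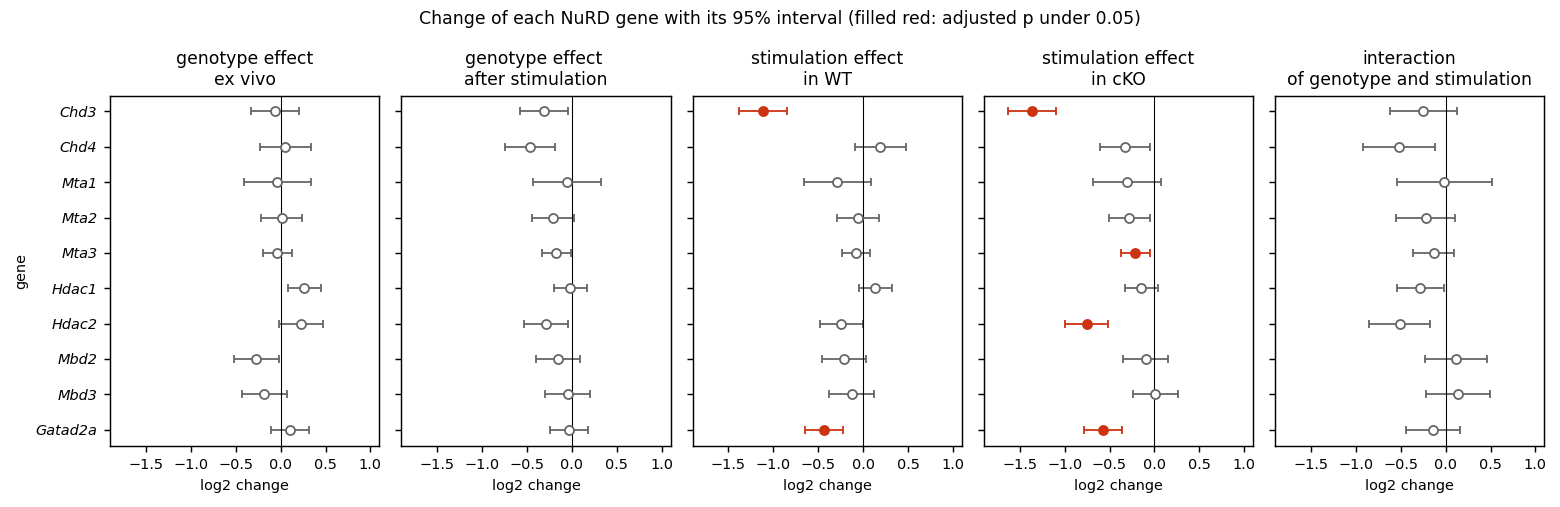
Log2 change of each NuRD gene (horizontal axis) with its 95% interval in the 5 comparisons; filled red points passed the adjusted p threshold of 0.05. Calls are confined to the stimulation comparisons, at 2 genes in WT and 4 in cKO, and all are falls.

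Stimulation called 32% of all genes in WT and 43.8% in cKO. Of the 10 members, 2 were called in WT (Chd3 and Gatad2a) and 4 in cKO (Chd3, Gatad2a, Hdac2 and Mta3). All of these were falls, beside 19.3% of all genes called lower in WT and 26.5% in cKO, so the count in WT is near the background, and that in cKO was not tested against it. Without WT ex vivo library 2, 5 members were called in WT, namely the same pair with Mta1, Hdac2 and Mbd2. Without cKO stimulated library 3, 3 were called in cKO, and the count over single omissions ran from 3 to 6. The median change of the members was -0.17 in WT and -0.29 in cKO, against 0.00 and -0.01 over all genes. Over single omissions it ran in WT from -0.28 (without WT ex vivo library 2) to -0.09 (without WT ex vivo library 3). In cKO it ran from -0.42 (without cKO stimulated library 2) to -0.19 (without cKO stimulated library 3). In TPM as deposited the member medians were 0.02 in WT and -0.62 in cKO, against 0.18 and -0.31 over all genes, and with the 1 TPM filter -0.42 and -0.83, against -0.23 and -0.50 over the same 13318 genes.

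The difference between genotypes in the response was tested directly. The interaction called 1.1% of all genes and 0 of the 10 members with limma, and 2.97% and 0 with limma-voom. Beside 1926 of the 13318 genes, 3 members had an unadjusted limma p under 0.05. These were Chd4 (-0.52, SE 0.18, limma adjusted p = 0.214), Hdac2 (-0.51, SE 0.16, adjusted p = 0.153) and Hdac1 (-0.28, SE 0.12, adjusted p = 0.314). The call of Hdac2 and Mta3 in cKO and not in WT is therefore not shown to be a difference between genotypes. For Chd3 the interaction was -0.25 (95% interval -0.62 to 0.13).

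Beyond the members, 10 of 16 further NuRD subunits and cofactors passed the filter. Of all genes, 12.7% rose and 19.3% fell with stimulation in WT, and 17.3% rose and 26.5% fell in cKO. Without Chd5, which reached the filter in 1 group only, 2 of these genes rose and 5 fell in WT (median -0.29), and in cKO 1 rose and 7 fell (median -0.57). Zfpm1, the FOG1 cofactor that recruits NuRD through its N terminus, fell from 39.9 ± 10.4 to 23.5 ± 2.21 TPM in WT (-0.90, SE 0.10, limma adjusted p = 8.7e-05) and from 59.7 ± 3.60 to 17.9 ± 2.62 TPM in cKO (-1.37, SE 0.10, adjusted p = 4.69e-06). Bcl11b, a T lineage zinc finger factor that binds NuRD, fell by 0.96 in WT and 0.78 in cKO on the log2 scale, and Zmynd8, a reader of acetylated histones, fell by 0.67 and 0.79. The Zmynd8 call in WT was lost in TPM as deposited (adjusted p = 0.0877). The histone-binding subunits fell as well, with Rbbp4 at -0.29 in WT and -0.57 in cKO and Rbbp7 at -0.47 and -0.68. Both WT calls were lost in TPM as deposited (-0.10 for Rbbp4, limma adjusted p = 0.744, and -0.27 for Rbbp7, adjusted p = 0.367) and with the 1 TPM filter or none. That of Rbbp4 was also lost without WT ex vivo library 3 (adjusted p = 0.0515) or WT stimulated library 1 (0.0622), and both cKO calls held in 19 of 19 alternatives. Of the exonic windows of Rbbp7, 16.1% occur elsewhere in the genome.

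Pwwp2b, which encodes a PWWP domain protein that binds part of NuRD, was the only gene of these 10 that limma called between genotypes, while limma-voom called 2 ex vivo and 1 after stimulation. Ex vivo it measured 5.38, 3.79 and 4.32 TPM in WT and 13.1, 14.6 and 12.3 TPM in cKO, without overlap (log2 change 1.18, SE 0.08, limma adjusted p = 4.97e-05, called in 19 of 19 alternatives). Zfpm1 was also higher in cKO ex vivo in the scaled libraries, without overlap, but its change of 0.37 missed the threshold (limma adjusted p = 0.068) and was called by limma-voom (0.0317) and without cKO ex vivo library 2 (0.0474). The part of the B cell markers in these ex vivo differences was not tested. The stimulated libraries held 7.04, 5.32 and 7.74 TPM of Pwwp2b in WT and 9.32, 7.80 and 6.15 TPM in cKO. These ranges overlapped as deposited and not once scaled (5.69 to 6.40 in WT and 8.39 to 8.84 in cKO), and the difference (0.44, SE 0.08, adjusted p = 0.00994) was lost in 4 of 19 alternatives, among them the omission of WT stimulated library 2 (adjusted p = 0.0558).

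Related complexes gave the wider setting, to be read beside the same shares of all genes (12.7% higher and 19.3% lower in WT, 17.3% and 26.5% in cKO). Of 22 subunits of the SIN3, CoREST and MIER complexes, which share HDAC1 and HDAC2, 4 rose and 1 fell with stimulation in WT, and 1 rose and 1 fell in cKO, with medians of 0.14 and 0.06, leaving out Rcor2, which reached the filter only in cKO stimulated, where it was highest. Of 12 other deacetylase genes and their corepressors, 0 rose and 3 fell in WT, and 0 rose and 6 fell in cKO. Among the WT falls, that of Hdac6 (-0.26, limma adjusted p = 0.0421) was called in 6 of 19 alternatives, and was lost without any 1 of the 6 WT libraries, without cKO ex vivo library 1 or 2, with the replicate block, with median-of-ratios scaling, in TPM as deposited and with lower filters (adjusted p up to 0.796). Tbl1xr1, an exchange factor of the NCoR and SMRT corepressors, fell by 1.21 and 1.63 (limma adjusted p = 3.82e-06 and 6e-07), and Hdac7, a class IIa deacetylase of T cells, by 0.89 and 1.27 (adjusted p = 2.71e-05 and 2.58e-06). Of 20 subunits of the BAF remodeller, which Ikaros also binds, 3 rose and 6 fell in WT, and 2 rose and 9 fell in cKO, with Arid1a at -0.60 and -0.80. Of 7 other CHD remodellers, 1 rose and 3 fell in WT and 0 rose and 6 fell in cKO, with Chd2 at -0.72 and -1.03. The WT calls of Arid1a and Chd2 were lost in TPM as deposited (adjusted p = 0.239 and 0.204) and with lower filters.

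Between genotypes, 5.29% of all genes were called by limma and 9.03% by limma-voom ex vivo, and 6.93% and 9.36% after stimulation, beside which the counts of these related lists are given. Of the 13318 genes, 2384 had an unadjusted limma p under 0.05 ex vivo and 3166 after stimulation. Ex vivo, limma called 0 of the 22 subunits of the SIN3, CoREST and MIER complexes, 1 of the 12 other deacetylases and corepressors, 0 of the 20 BAF subunits and 0 of the 7 other CHD remodellers, with 1, 2, 1 and 0 at an unadjusted p under 0.05 and 1, 1, 1 and 0 called by limma-voom. After stimulation limma called 0 in each, with 2, 3, 5 and 2 at an unadjusted p under 0.05 and 0, 2, 1 and 0 called by limma-voom. The gene called ex vivo was Hdac6, a mostly cytoplasmic deacetylase, higher in cKO by 0.38 (SE 0.09, limma adjusted p = 0.0281), and leaving out any ex vivo library ended that call (adjusted p = 0.0575 to 0.125), as did the replicate block (0.0659), TPM as deposited (0.133) and the 1 TPM filter or none (0.754 and 0.714). It moved with the B cell markers ex vivo, whose part in it was not tested. Of 2 CtBP corepressors and 4 methyl-CpG binding relatives tested, 1 each fell with stimulation in cKO, namely Ctbp1 at -0.43 and Zbtb33, which encodes Kaiso, at -0.28. The Ctbp1 call was lost without cKO ex vivo library 1 or 3 or cKO stimulated library 3 (limma adjusted p = 0.0688 to 0.0998). The Zbtb33 call was lost with the replicate block (0.0741), with median-of-ratios scaling (0.0863) and without WT ex vivo library 3, cKO ex vivo library 1 or 3, WT stimulated library 1 or 3, or cKO stimulated library 1 or 3 (0.0563 to 0.157).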

How the data were processed

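RNA was sequenced from 12 Treg libraries, 3 for each of 4 groups taken from the labels. According to the study's methods, ribosomal RNA was depleted, stranded libraries were read as 51 bp paired ends, and reads were aligned with STAR 2.6.0c to mm9 and counted by strand on Ensembl exons with HTSeq 0.6.1. The authors deposited an expression signal per gene and library, namely TPM, and its log2 after adding the value of 1 read. Dividing the TPM by what that log2 adds returned whole reads (tolerance 0.01) for 99.9977% of values. A second deposited table of the authors' own comparisons was not used.

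Over genes reaching 5 TPM as the mean of any group, library factors came from trimmed means of M-values (30% of M and 5% of A trimmed), and log2(scaled TPM + 1) was fitted to all 12 libraries with limma 3.58.1 (eBayes with trend) in R 4.3.3, with group as the only term. P-values are two-sided and adjusted over all 13318 genes within each of 5 comparisons. Log2 changes understate those of low genes. Ratios of paired genes within a library were compared by exact permutation within strata (400 arrangements, 14 tests). Scripts ran under Python 3.11.15 and were tested on simulated data. Alternatives were lower filters, a pseudocount of 0.5, other scaling, a replicate block, limma-voom on recovered reads and the omission of each library.

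The members and gene lists were chosen with earlier results of these data known. Named genes were the 10 members, Ikzf1, Gm10800 and Xist, and, of each list, at most the 3 called genes of smallest adjusted p per comparison; stimulation control genes, the partners in the ratio tests, Chd5 and Gm10093 were named as well. Rcor2 and Cd79b were named after their values were seen, and called genes that reached the filter in 1 group only were then left out of list counts. Positions are from GENCODE vM1, and exonic windows of 51 bases were searched in the mm9 genome. Cells came from individual mice per the labels, which do not say whether 1 mouse gave libraries of both conditions.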

Additional observations from a re-analysis of the deposited data

Results flagged for a closer look

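The genotype difference in the ratio of Chd3 to Chd4 pointed opposite ways in the 2 conditions. Ex vivo every cKO library (1.09 to 1.11) lay below every WT library (1.15 to 1.28), and after stimulation every cKO library (0.512 to 0.565) lay above every WT library (0.446 to 0.502). The log2 differences were -0.12 and 0.15, which are 0.27 apart, and this gap was not tested. The mean over both conditions was 0.02 (exact permutation p = 0.805).

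Pwwp2b differed between genotypes in its response to stimulation. It changed by 0.31 in WT (limma adjusted p = 0.0139) and by -0.42 in cKO (adjusted p = 0.00224). The WT call was lost with the 1 TPM filter (0.10, adjusted p = 0.825) or none (0.12, 0.775), in TPM as deposited (0.48, 0.103), with limma-voom (0.37, 0.068) and without WT stimulated library 3 (0.29, 0.0565). The interaction was -0.74 (SE 0.12, limma adjusted p = 0.0163). The interaction was called in 13 of 19 alternatives, with adjusted p up to 0.44, and was lost without WT ex vivo library 3 (0.0571), cKO ex vivo library 1 (0.0616) or WT stimulated library 3 (0.0518).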

How the results depend on the processing

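Of the 190 alternative values of the members in each comparison (10 genes in 19 settings), none was called for the genotype effect ex vivo or the interaction, although 16 and 12 values had the opposite sign; 3 of 190 were newly called for the genotype effect after stimulation, 3 lost and 3 newly called for stimulation in WT, and 9 lost and 16 newly called in cKO. The sign also turned for 9, 8 and 8 values in these 3 comparisons, none of them called in either fit. The number of members called became 1 after stimulation between genotypes with limma-voom (0 to 1 over single omissions); 1 in WT with the 1 TPM filter, no filter or TPM as deposited (2 to 5); and 7 in cKO with the 1 TPM filter or none (3 to 6). Over all genes, the 704 calls ex vivo became 57, 56, 273 and 1203 with the 1 TPM filter, no filter, TPM as deposited and limma-voom (325 to 740 over omissions), the 923 after stimulation 68, 68 and 306 with the first 3 of these (398 to 1058), the 4262 in WT 1838, 1694 and 1943, and the 147 of the interaction 0, 0, 67 and 395 (50 to 206). In the fits at 0, 2406 and 2688 genes had an unadjusted p under 0.05. With the 1 TPM filter, the median of the 13318 genes shifted to -0.02, -0.31, -0.23, -0.50 and -0.30 in the 5 comparisons, and in TPM as deposited to 0.21, -0.30, 0.18, -0.31 and -0.52. In TPM as deposited, calls split into 260 higher and 13 lower (482 and 222 in the chosen fit) ex vivo, 69 and 237 (439 and 484) after stimulation, 1175 and 768 (1688 and 2574) in WT, 558 and 4116 (2305 and 3530) in cKO, and 6 and 61 (60 and 87) for the interaction. With the 1 TPM filter they split into 44 and 13 ex vivo, 304 and 1534 in WT and 757 and 5145 in cKO. The cause of these shifts was not tested.

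Same-numbered libraries of different groups deviated with correlations of -0.21 to 0.26, so the numbers are not treated as pairs. With the replicate block the interaction gave 65 calls and, of the members, only Mta3 in cKO was lost. With the block, the smallest p an exact ratio test can give is 0.03125, which no longer passes adjustment, at unchanged differences of -1.19 (Chd3 over Chd4), -0.54 (Hdac2 over Hdac1), 0.31 (Gatad2b over Gatad2a) and -0.15 (Rbbp7 over Rbbp4) for stimulation and -0.20 (Gatad2b over Gatad2a) for genotype. Over single omissions the Rbbp7 over Rbbp4 difference with stimulation ran from -0.17 to -0.13 and lost its call in 5 of 12; the genotype difference ran from -0.24 to -0.16 for Gatad2b over Gatad2a and from -0.22 to -0.12 for Hdac2 over Hdac1, the latter called without cKO ex vivo library 1. Hdac2 and Mbd3 rested on the fewest reads, 208 to 288 and 229 to 289 in cKO stimulated libraries.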
